A study of Homo sapiens with 6 samples.

Results

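Collagens are the triple-helical proteins of the extracellular matrix, and the 44 genes described here are the protein-coding genes of the table whose symbol is COL, a number, A and a number. They were picked by that rule from 58735 genes, of which 19951 were protein-coding. The rule uses no expression values, but it was chosen with earlier results of these data known. Expression was measured by RNA sequencing of cells labelled in both groups as SW480, an established cell line from a human colorectal adenocarcinoma, grown in Leibovitz medium with serum. In the design, 3 libraries with the genotype label DDX39B overexpression were set against 3 libraries titled as control, with the genotype label WT. No knockout, drug or further allele is named for either group, and the labels used here do not say how DDX39B was overexpressed or whether the libraries came from separate cultures or clones. The p-values below therefore measure the spread between these libraries, which may be technical.

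Each collagen chain carries repeats of glycine and 2 further residues, often proline and hydroxyproline, and 3 chains wind into a helix, as copies of 1 chain or as fixed combinations of partners. Fibrillar collagens build the fibres of connective tissue, FACIT collagens sit on the surface of such fibres, collagen IV forms the sheet of the basement membrane beneath an epithelium, and transmembrane collagens stay attached to the cell. In the intestine the mucosal epithelium rests on a basement membrane of collagen IV and laminin, while most fibrillar collagen is made by stromal fibroblasts.

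The authors deposited FPKM, a read count scaled for gene length and library, so levels can be compared between genes on that scale. Multiplying FPKM by gene length returned whole reads, 16980763 to 17170008 per library in the overexpression-labelled group and 16963075 to 17463697 in the control-labelled group. For a gene of 1 kilobase, 3 reads corresponded to 0.166 to 0.184 FPKM. DDX39B, the labelled gene, went against the labels, with 15.0, 13.9 and 14.03 FPKM in the overexpression-labelled libraries, against 39.3, 34.6 and 41.9 FPKM in the control-labelled ones (log2 fold change -1.37, SE 0.079, limma adjusted p = 6.93e-06). The groups are therefore called by their labels, and each direction is drawn from the labels as given. Whether labels or columns were exchanged, and whether both groups are the same cell line, was not tested, and each fold below compares the libraries as labelled. Across genes, which are not independent replicates, log2 values correlated at 0.676 to 0.685 between libraries of different groups, at 0.991 within the overexpression-labelled group and at 0.974 to 0.988 within the control-labelled group. The 6 epithelial marker genes summed to 1473 to 1490.45 FPKM in the overexpression-labelled libraries and 357 to 430 FPKM in the control-labelled ones. The epithelial adhesion genes EPCAM (171 ± 3.6 FPKM in the overexpression-labelled group against 2.72 ± 0.67 FPKM) and CDH1 (10.99 ± 0.43 against 0.284 ± 0.16 FPKM; SD, n = 3 each) were both lower in the control-labelled group, and most of the sum was KRT8 and KRT18. KRT20 went the other way, with 6 reads in the overexpression-labelled group against 80 in the control-labelled group. The 7 fibroblast marker genes summed to 3.36 to 3.43 FPKM in the overexpression-labelled group, with 4 of them at 0 reads, and to 65.8 to 72.5 FPKM in the control-labelled group, where FBLN1 alone averaged 68.4 ± 3.2 FPKM. LUM, of the same list, went the other way, with 29 reads against 1 in those groups. Like FBLN1, PDGFRB was lower in the overexpression-labelled group, with 77 reads against 504 in the control-labelled group. DCN (0 against 80 reads), THY1 (0 against 20) and FAP (0 against 11) were lower there as well. PDGFRA, a defining fibroblast receptor, had 0 reads in all 6 libraries. COL1A2, which fibroblasts make together with COL1A1, had 3 reads in each group. The part of these markers in the differences below was not tested.

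Both groups expressed a collagen repertoire, but a different one. Collagen IX chain COL9A3 led in the overexpression-labelled libraries, followed by COL18A1, COL6A1 and COL13A1. The control-labelled libraries held COL15A1, COL7A1, COL9A3, COL4A2 and COL5A1 at similar levels. Of the 44 collagen genes, 16 reached a mean of 1 FPKM over the 6 libraries and were tested in a limma fit of log2(FPKM + 1) over 13972 genes. Among these 16, 5 were higher in the overexpression-labelled libraries, 10 were lower, and 1, COL6A1, did not pass an adjusted p of 0.05. Over all genes tested the same call fell on 76.8%, with 37.5% higher and 39.3% lower, so the share of called collagens has to be read against a background in which most genes differed. The groups did not overlap for 15 of the 16, against 80.1% of all genes tested. The median log2 fold change was -1.20 over the 16 collagens and -0.03 over all genes tested, and the median size, sign left aside, was 2.31 against 0.62. A change of at least 1 log2 unit in size was called for 13 of the 16 (31.2% of all genes tested), and one of at least 3 units for 6 of the 16 (3.96%). Only 8 of the 44 genes averaged 1 FPKM or more in both groups. A further 3 did so only in the overexpression-labelled group and 6 only in the control-labelled group, and a gene that entered the test through the group where it was high had to differ, so these counts and medians describe the 16 and not all collagens. In bulk RNA, fewer cells that make a transcript and less of it per cell cannot be told apart.

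**Figure D1:**
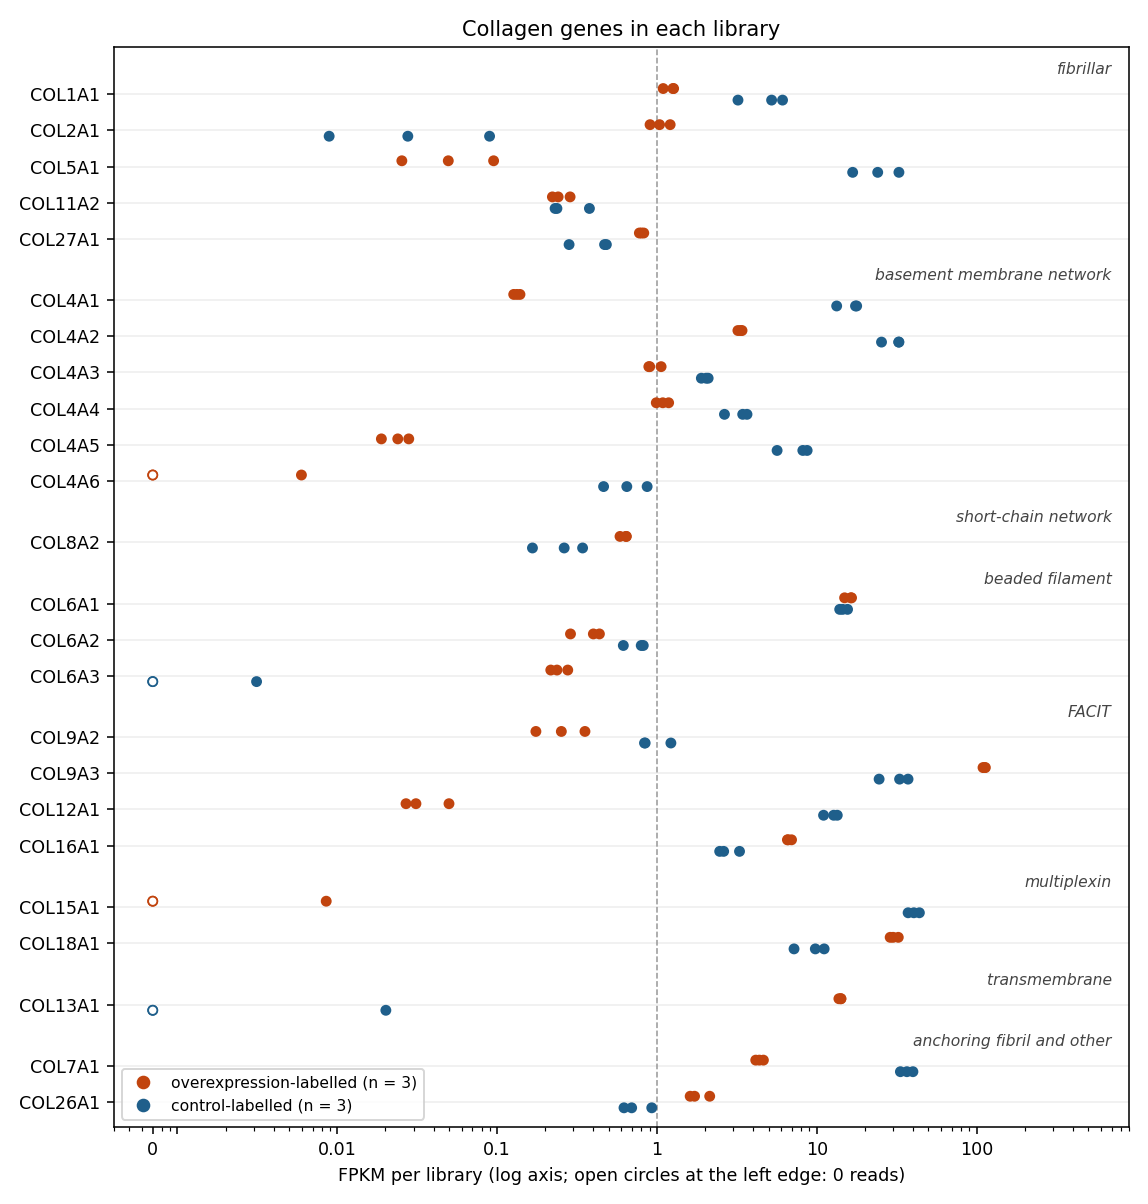
FPKM per library, on a log axis, of the 24 collagen genes with at least 100 reads over the 6 libraries. Each point is 1 library, open circles mark 0 reads, and the dashed line marks 1 FPKM. COL15A1, COL5A1, COL12A1 and COL4A5 lie above 5 FPKM in the control-labelled libraries and below 0.1 FPKM in the overexpression-labelled ones, and COL13A1 shows the opposite pattern.

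The summed FPKM of all 44 genes was 191, 197 and 200.07 in the overexpression-labelled libraries, against 250.4, 269.6 and 203.9 in the control-labelled ones. On the deposited scale all 3 control-labelled sums lay above the others, the lowest by a small margin. The denominators of the deposited FPKM were 1.04 to 1.05 times the read sum in overexpression-labelled libraries, against 0.958 to 0.995 times in control-labelled ones. The place of the lowest control-labelled sum therefore depends on this scaling. What differed more was how the sum was divided. COL9A3 made up 57.4, 57.0 and 56.7% of the summed collagen FPKM in the overexpression-labelled libraries, against 13.2, 13.8 and 12.0% in the control-labelled ones. COL18A1 added 15.5% on average in the overexpression-labelled group and 3.86% in the control-labelled group. Transmembrane collagens held 7.30, 7.29 and 7.13% in the overexpression-labelled libraries, against 0.0650, 0.105 and 0.0842% in the control-labelled ones. The collagen IV genes, which build the basement membrane network, held 2.81% in each overexpression-labelled library and 25.8, 24.2 and 24.3% in the control-labelled libraries. Fibrillar collagens held 1.85, 1.65 and 1.85% in the overexpression-labelled libraries, against 12.1, 14.8 and 10.3% in the control-labelled ones. In each of these classes the groups were apart. Beaded filament collagens, chiefly COL6A1, held 8.14, 8.57 and 8.604% in the overexpression-labelled libraries against 5.89, 6.01 and 7.54% in the control-labelled ones.

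**Figure D2:**
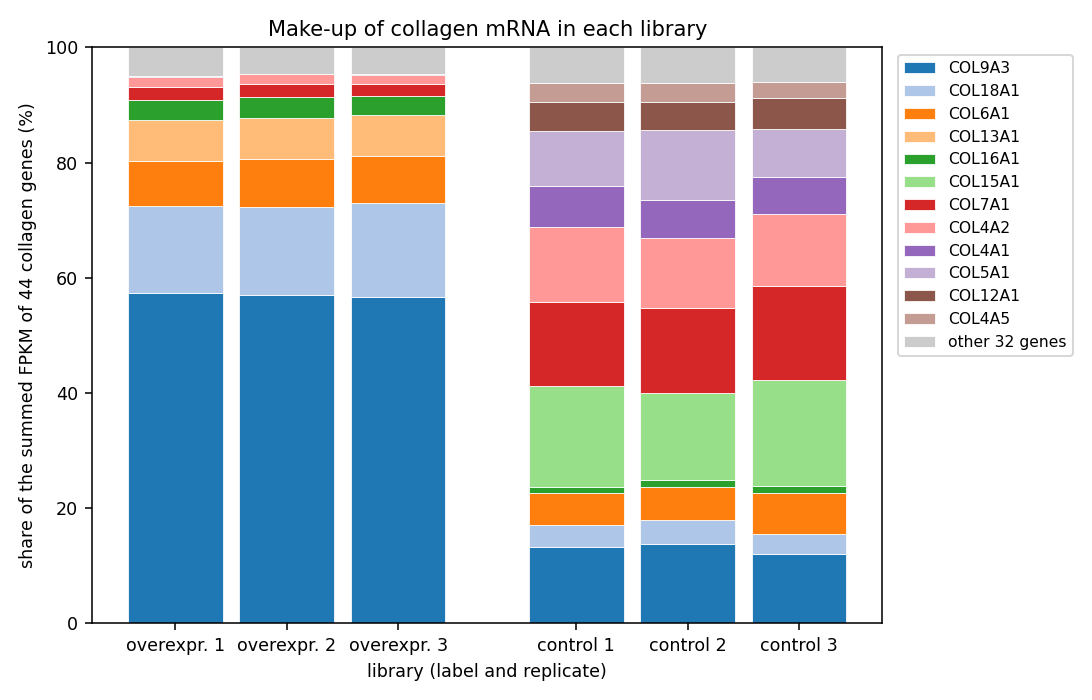
Share of the summed FPKM of all 44 collagen genes taken by each of 12 named genes and by the other 32 together, in percent, 1 stacked bar per library. COL9A3 takes 56.7 to 57.4% in the overexpression-labelled libraries and 12.0 to 13.8% in the control-labelled ones, where COL15A1 and COL7A1 take 15.0 to 18.3% and 14.6 to 16.4%.

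The order of levels had a steep head in the overexpression-labelled libraries. COL9A3 averaged 112 FPKM there, COL18A1 30.4, COL6A1 15.9, COL13A1 14.02, COL16A1 6.71, COL7A1 4.39 and COL4A2 3.32 FPKM, and the ranges of neighbours in this order did not overlap. In the control-labelled libraries COL15A1 averaged 40.5 FPKM, COL7A1 36.7, COL9A3 31.6, COL4A2 30.2, COL5A1 24.5, COL4A1 16.2 and COL6A1 14.7 FPKM, and the range of each over the libraries overlapped that of the next. Within each of the 3 control-labelled libraries COL15A1 lay above COL7A1, COL7A1 above COL9A3, and COL5A1 above COL4A1. The order of COL9A3 and COL4A2, of COL4A2 and COL5A1, and of COL4A1 and COL6A1 differed between these libraries. COL12A1, next at 12.4 FPKM, had a range below that of COL6A1.

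Among the FACIT collagens, COL9A3 and COL16A1 were higher and COL12A1 was lower. COL9A3 (chr20:62816244-62841159, plus strand, GRCh38) encodes a chain of collagen IX, which decorates the collagen II fibres of cartilage. COL9A3 had 109.7, 112 and 113 FPKM in the overexpression-labelled libraries, against 33.0, 37.2 and 24.6 FPKM in the control-labelled ones. The groups were well apart, at 112 ± 1.9 and 31.6 ± 6.5 FPKM (SD, n = 3 each), a ratio of 3.54 (log2 fold change 1.81, SE 0.14, limma adjusted p = 2.99e-05). Its last 45 bases are shared with TCFL5 on the other strand, or 0.930% of the gene's exon length. The partner chains of collagen IX did not follow it. COL9A2 had 0.175, 0.354 and 0.252 FPKM in the overexpression-labelled libraries, against 0.844, 1.22 and 0.836 FPKM in the control-labelled ones, and COL9A1 had 0 reads in every library. COL9A3 thus stood 429 times above COL9A2 in the overexpression-labelled group and 32.7 times above it in the control-labelled group, although collagen IX is known as a trimer of all 3 chains. COL9A2 averaged below 1 FPKM and was tested only on the reads, as described further on.

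COL16A1 (chr1:31652247-31704319, minus strand), a FACIT collagen of skin and cartilage matrix, had 6.62, 6.95 and 6.55 FPKM in the overexpression-labelled libraries, against 2.61, 3.29 and 2.47 FPKM in the control-labelled ones. It was 2.40-fold higher, with no overlap (log2 fold change 1.03, SE 0.092, limma adjusted p = 5.69e-05). COL12A1 (chr6:75084326-75206051, minus strand) encodes the chain of collagen XII, which coats collagen I fibres in tendon, skin and stroma. COL12A1 had 0.04998, 0.0310 and 0.0269 FPKM in the overexpression-labelled libraries, against 12.8, 13.4 and 11.03 FPKM in the control-labelled ones. These stand for 24 reads against 7728 reads, a level 345-fold lower in the overexpression-labelled libraries (log2 fold change -3.69, SE 0.085, limma adjusted p = 1.19e-07).

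The 2 multiplexins, collagens of basement membrane zones with long non-helical ends, went in opposite directions. COL18A1 (chr21:45405137-45513720, plus strand), whose C-terminal fragment is endostatin, had 28.8, 30.04 and 32.4 FPKM in the overexpression-labelled libraries, against 9.79, 11.1 and 7.21 FPKM in the control-labelled ones. At 30.4 ± 1.8 and 9.37 ± 2.0 FPKM (SD, n = 3 each), the means stood at a ratio of 3.24 with no overlap (log2 fold change 1.61, SE 0.14, limma adjusted p = 5.53e-05). Exons of COL18A1 share 1401 of 8525 bases with SLC19A1, a folate transporter gene on the other strand. SLC19A1 went the other way, with 4.36, 4.17 and 4.55 FPKM in the overexpression-labelled libraries, against 7.71, 7.84 and 6.87 FPKM in the control-labelled ones (log2 fold change -0.66, SE 0.069, limma adjusted p = 1.26e-04). Whether the counting kept the strand is not given in the sources used here, so reads of the 2 genes in the shared bases cannot be told apart.

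COL15A1 (chr9:98943179-99070792, plus strand) encodes collagen XV, which links basement membranes to the fibres below them. COL15A1 had 0.00852, 0 and 0 FPKM in the overexpression-labelled libraries, against 43.9, 40.5 and 37.3 FPKM in the control-labelled ones. The most abundant collagen transcript of the control-labelled group was thus represented by 1 read in the 3 overexpression-labelled libraries together, against 13454 reads. By reads the ratio was 14438-fold lower, with an exact 95% counting interval of 2591 to 570317 (log2 fold change -5.37, SE 0.072, limma adjusted p = 1.89e-08). An antisense transcript that shares 137 of its exon bases, AL136084.3, had 0 and 29 reads in the same 2 groups.

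The transmembrane collagen COL13A1 (chr10:69801867-69964275, plus strand), a protein of cell adhesion sites and of the neuromuscular junction, had the opposite pattern to COL15A1. It had 13.8, 14.2 and 14.2 FPKM in the overexpression-labelled libraries, against 0, 0.0201 and 0 FPKM in the control-labelled ones. These stand for 4423 reads against 2 reads, a ratio of 2061 by reads with an exact 95% counting interval of 570.1 to 17022 (log2 fold change 3.90, SE 0.058, limma adjusted p = 2.46e-08).

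All 5 tested genes of collagen IV, which forms the network of the basement membrane, were lower, against 39.3% of all genes tested. The remaining member COL4A6 was lower on the reads, against 35.4% of all genes so tested. COL4A1 (chr13:110148963-110307233, minus strand) and COL4A2 (chr13:110305812-110513209, plus strand) encode the chains found in nearly all basement membranes. COL4A1 had 0.127, 0.139 and 0.133 FPKM in the overexpression-labelled libraries, against 17.5, 17.8 and 13.3 FPKM in the control-labelled ones, or 122-fold lower (fitted log2 fold change -3.91, SE 0.11, limma adjusted p = 3.15e-07). COL4A2 had 3.34, 3.21 and 3.41 FPKM in the overexpression-labelled libraries, against 32.6, 32.6 and 25.4 FPKM in the control-labelled ones, or 9.10-fold lower (fitted log2 fold change -2.84, SE 0.10, limma adjusted p = 8.17e-07). The 2 chains, which combine as 2 copies of the COL4A1 product with 1 of COL4A2, therefore differed in how far they were lower. The ratio of COL4A1 to COL4A2 was 0.0380, 0.0433 and 0.0390 in the overexpression-labelled libraries, against 0.535, 0.545 and 0.524 in the control-labelled ones, with a wide gap between the groups.

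COL4A2 contains antisense genes that moved against it. COL4A2-AS2 had 5.70, 5.56 and 5.55 FPKM in the overexpression-labelled libraries, against 0.242, 0.0779 and 0.157 FPKM in the control-labelled ones (457 against 12 reads; log2 fold change 2.51, SE 0.079, limma adjusted p = 4.37e-07). COL4A2-AS1 had 4.41, 5.74 and 5.08 FPKM in the overexpression-labelled libraries, against 0.909, 0.549 and 0.221 FPKM in the control-labelled ones (147 against 15 reads; log2 fold change 1.98, SE 0.17, limma adjusted p = 5.30e-05). Both were thus higher in the overexpression-labelled group with no overlap. Their exons share 14 and 81 bases with those of COL4A2, which had 3429 reads in the overexpression-labelled libraries, against 29077 in the control-labelled ones. Without a stated strand, reads of COL4A2 and of its antisense genes cannot be told apart in those bases.

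COL4A3, COL4A4 and COL4A5 encode the chains of the kidney, lung and eye type of collagen IV that is altered in Alport syndrome. COL4A3 (chr2:227164565-227314792, plus strand) had 0.901, 1.06 and 0.890 FPKM in the overexpression-labelled libraries, against 2.09, 1.90 and 2.03 FPKM in the control-labelled ones, or 2.11-fold lower (fitted log2 fold change -0.62, SE 0.077, limma adjusted p = 2.90e-04). COL4A4 (chr2:227002711-227164453, minus strand) had 0.991, 1.09 and 1.18 FPKM in the overexpression-labelled libraries, against 3.66, 3.44 and 2.65 FPKM in the control-labelled ones, or 2.99-fold lower (fitted log2 fold change -1.02, SE 0.11, limma adjusted p = 1.47e-04). Neither gene's groups overlapped, but these were the smallest differences in the family. COL4A5 (chrX:108439844-108697545, plus strand) had 0.0239, 0.0280 and 0.0189 FPKM in the overexpression-labelled libraries, against 8.18, 8.70 and 5.65 FPKM in the control-labelled ones, 15 against 4446 reads. It was 318-fold lower (fitted log2 fold change -3.04, SE 0.15, limma adjusted p = 3.04e-06). Its neighbour COL4A6 had 0, 0.00596 and 0 FPKM in the overexpression-labelled libraries, against 0.648, 0.868 and 0.464 FPKM in the control-labelled ones, 1 against 306 reads.

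The 6 collagen IV genes lie as 3 head-to-head pairs, in which the chains are transcribed away from each other. The members of each pair had the same direction, in a background where 39.3% of all genes tested were lower, or 35.4% on the reads. By the table's coordinates COL4A1 and COL4A2 overlap (a gap of -1422 bases), COL4A4 and COL4A3 are 111 bases apart, and COL4A6 and COL4A5 are 346 bases apart. The stretches between the start sites, from RefSeq on GRCh38.p14 (plus strand), are shown because each lies upstream of both members of a pair that were lower together. Capitals mark the GC box GGGCGG and the CCAAT box in either orientation, and the TATA box TATAAA was not found in these letters. The stretch of the first pair is the whole spacer of 126 bases at chr13:110307158-110307283, that of the second is the 111 bases between the gene models, of 418 between start sites, at chr2:227164454-227164564, and that of the third is the 250 bases next to COL4A5, of 379, at chrX:108439588-108439837.
COL4A1 and COL4A2: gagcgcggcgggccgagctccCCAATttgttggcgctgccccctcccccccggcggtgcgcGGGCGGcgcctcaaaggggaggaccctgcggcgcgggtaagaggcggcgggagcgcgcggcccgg
COL4A4 and COL4A3: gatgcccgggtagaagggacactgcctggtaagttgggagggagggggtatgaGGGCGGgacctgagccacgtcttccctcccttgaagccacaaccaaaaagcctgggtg
COL4A6 and COL4A5: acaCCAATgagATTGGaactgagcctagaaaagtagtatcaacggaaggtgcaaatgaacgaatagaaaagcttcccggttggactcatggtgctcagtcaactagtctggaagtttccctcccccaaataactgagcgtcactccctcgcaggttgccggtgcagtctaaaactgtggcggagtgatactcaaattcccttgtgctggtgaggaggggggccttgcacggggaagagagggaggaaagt
Among the printed stretches, the first is the richest in G and C at 80.2%, against 61.3% and 51.2% in the others. It holds 1 GC box and 1 CCAAT box, the second holds 1 GC box, and the third holds 2 CCAAT boxes in opposite orientations. Only the first is a whole spacer, and the other spacers hold further boxes outside the printed letters. The 250 bases before the COL4A3 start hold 2 GC boxes, and those at chrX:108439459-108439708, before COL4A6, hold 3 CCAAT boxes. The pair with the GC-rich stretch and the pair with the AT-richer one both contained a chain at under 0.15 FPKM in the overexpression-labelled libraries.

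Windows of RefSeq promoters were available for 32 of the 44 collagen genes, as 44 windows. Some genes had several windows, and some windows share bases, as those of COL5A1 do, so the windows are not independent. In the 250 bases before the start, on either strand, the GC box was found in 24 of 44 collagen windows (54.5%), against 42.6% of all 35116 windows. The CCAAT box was in 27.3% of collagen windows against 32% of all, and TATAAA in 18.2% against 10.7%. The AP-1 site TGANTCA was in 1 collagen window (2.27%) against 6.57% of all. These are matches of letters and do not show binding.

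**Figure D3:**
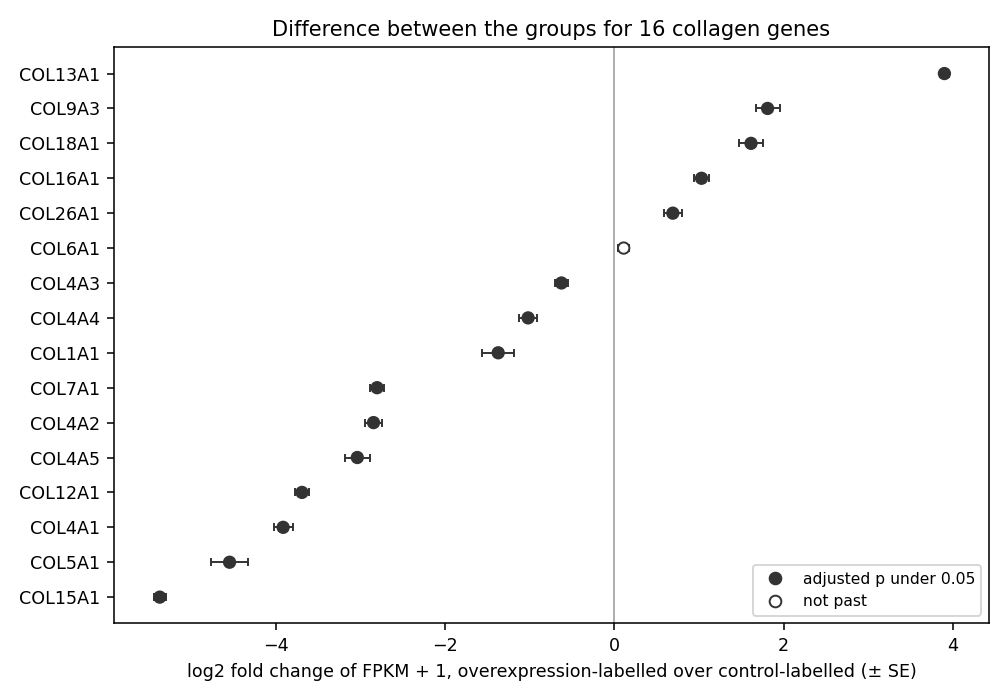
Log2 fold change of the 16 tested collagen genes on the log2(FPKM + 1) scale, overexpression-labelled over control-labelled libraries, with bars of 1 SE. COL13A1 at 3.90 is the highest and COL15A1 at -5.37 the lowest, and all 5 collagen IV genes lie below 0.

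COL7A1 (chr3:48564073-48595267, minus strand) forms the anchoring fibrils that tie an epithelial basement membrane to the stroma. COL7A1 had 4.37, 4.64 and 4.15 FPKM in the overexpression-labelled libraries, against 36.6, 39.95 and 33.4 FPKM in the control-labelled ones. The groups, at 4.39 ± 0.24 and 36.7 ± 3.3 FPKM (SD, n = 3 each), were far apart, and COL7A1 was 8.36-fold lower (fitted log2 fold change -2.80, SE 0.078, limma adjusted p = 2.67e-07). COL26A1, on chromosome 7, has an EMI domain beside short collagen stretches and was in the opposite direction. It had 2.14, 1.72 and 1.61 FPKM in the overexpression-labelled libraries, against 0.622, 0.695 and 0.928 FPKM in the control-labelled ones, or 2.44-fold higher (log2 fold change 0.69, SE 0.11, limma adjusted p = 1.07e-03).

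Of the fibrillar collagens only COL5A1 and COL1A1 were abundant enough for the test on FPKM, and both were lower. COL5A1 (chr9:134641774-134844843, plus strand) encodes the chain of collagen V that starts collagen I fibres and is mutated in classical Ehlers-Danlos syndrome. COL5A1 had 0.0253, 0.0495 and 0.0951 FPKM in the overexpression-labelled libraries, against 24.1, 32.7 and 16.8 FPKM in the control-labelled ones. At 34 reads against 13696 reads it was 433-fold lower, or 655-fold without overexpression-labelled replicate 3 (log2 fold change -4.54, SE 0.22, limma adjusted p = 2.80e-06). Its usual partner COL5A2 was nearly silent, with 18 reads in the overexpression-labelled group and 7 in the control-labelled group, so that COL5A1 stood 1304 times above it in the control-labelled libraries. COL1A1 (chr17:50183289-50201632, minus strand), the main chain of collagen I, had 1.26, 1.09 and 1.27 FPKM in the overexpression-labelled libraries, against 5.22, 6.11 and 3.21 FPKM in the control-labelled ones. It was 4.01-fold lower (fitted log2 fold change -1.37, SE 0.19, limma adjusted p = 5.23e-04), while its partner COL1A2, as given above, was at 3 reads in each group.

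COL6A1 (chr21:45981737-46005050, plus strand), a chain of the beaded filaments of collagen VI around cells, was the tested collagen that did not pass the threshold. COL6A1 had 14.9, 16.3 and 16.5 FPKM in the overexpression-labelled libraries, against 13.9, 15.6 and 14.5 FPKM in the control-labelled ones, so the groups overlapped (log2 fold change 0.11, SE 0.065, limma adjusted p = 0.162). It passed with 2 other scalings of the libraries, at a log2 fold change of 0.21 (limma adjusted p = 0.0349) on FPKM recomputed from the sum of reads and of 0.20 (limma adjusted p = 0.0412) after quantile normalisation. Its partner chains were at a small fraction of its level. COL6A2, which lies 93046 bases away on the same strand, had 0.400, 0.288 and 0.437 FPKM in the overexpression-labelled libraries, against 0.797, 0.616 and 0.821 FPKM in the control-labelled ones. COL6A3 had 0.217, 0.237 and 0.277 FPKM in the overexpression-labelled libraries, against 0.00312, 0 and 0 FPKM in the control-labelled ones. COL6A1 therefore stood 42.5 times above COL6A2 in the overexpression-labelled group and 19.7 times above it in the control-labelled group, although the 3 chains form collagen VI together.

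The 28 collagen genes under a mean of 1 FPKM were looked at on the reads. Of these, 8 had at least 100 reads over the 6 libraries, 5 had 30 to 99, 12 had 1 to 29, and COL9A1, COL19A1 and COL22A1 had 0. With voom in limma over all 19250 genes with at least 30 reads in total, a test added after the data were seen, 29 collagen genes were tested. Of the 29, 11 were higher, against 39.3% of all genes so tested, 15 were lower, against 35.4%, and COL6A1, COL11A2 and COL5A3 did not pass; the call in either direction fell on 74.7% of all genes. Here too a gene with reads in 1 group only entered through that group.

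Cartilage-type fibrillar chains were among those higher on the reads. COL2A1, the main collagen of cartilage, had 1.04, 0.905 and 1.21 FPKM in the overexpression-labelled libraries, against 0.0276, 0.00889 and 0.0897 FPKM in the control-labelled ones. At 375 against 14 reads it was 24.99-fold higher, or 57.6-fold without control-labelled replicate 3 (log2 fold change on reads 4.93, SE 0.55, limma-voom adjusted p = 4.24e-05). COL27A1, a fibrillar collagen of developing cartilage, had 0.827, 0.799 and 0.776 FPKM in the overexpression-labelled libraries, against 0.482, 0.470 and 0.282 FPKM in the control-labelled ones, or 1.95-fold higher (log2 fold change on reads 1.00, SE 0.19, limma-voom adjusted p = 1.32e-03). COL11A2, a partner of collagen II fibres, had 0.286, 0.222 and 0.241 FPKM in the overexpression-labelled libraries, against 0.237, 0.378 and 0.231 FPKM in the control-labelled ones, and these overlapped (limma-voom adjusted p = 0.634). Its partner COL11A1 had 0 and 2 reads in those 2 groups. The 4 chondrocyte markers were split. ACAN and HAPLN1 had 0 reads in every library. MATN1 had 82 reads in the overexpression-labelled group against 12 in the control-labelled group (limma-voom adjusted p = 1.004e-03). COMP had 86 against 257 (limma-voom adjusted p = 4.71e-04) and was also lower on FPKM (limma adjusted p = 1.11e-03). The 4 markers summed to 0.811 to 0.918 FPKM in the overexpression-labelled group and 1.28 to 1.94 FPKM in the control-labelled group.

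COL6A3 and COL8A2, a chain of the corneal Descemet membrane, were higher on the reads. COL6A3 had 256 reads in the overexpression-labelled libraries, against 1 in the control-labelled ones, a ratio of 239 with an exact 95% counting interval of 42.4 to 9459 (limma-voom adjusted p = 2.58e-06). COL8A2 had 0.644, 0.640 and 0.587 FPKM in the overexpression-labelled libraries, against 0.263, 0.343 and 0.166 FPKM in the control-labelled ones, or 2.42-fold higher (log2 fold change on reads 1.31, SE 0.27, limma-voom adjusted p = 2.09e-03). COL9A2, COL6A2 and COL4A6 were lower on the reads. COL9A2 was 3.71-fold lower (fitted log2 fold change on reads -1.90, SE 0.31, limma-voom adjusted p = 4.62e-04), and COL6A2 was 1.99-fold lower (fitted log2 fold change on reads -0.99, SE 0.23, limma-voom adjusted p = 3.80e-03). COL4A6 was 328-fold lower by reads, with an exact 95% counting interval of 58.5 to 13012 (limma-voom adjusted p = 1.22e-05).

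Among the 5 genes with 30 to 99 reads, the FACIT gene COL21A1 had 59 reads in the overexpression-labelled libraries, against 0 in the control-labelled ones, at least 18.3-fold higher with the control-labelled group set to 3 reads in all (limma-voom adjusted p = 3.46e-06). COL25A1, a transmembrane collagen of neurons, had 1 and 56 reads in those groups, 60.1-fold lower with an exact 95% counting interval of 10.4 to 2416 (limma-voom adjusted p = 4.87e-05). The fibrillar gene COL24A1 had 0 and 30 reads, at least 10.7-fold lower (limma-voom adjusted p = 8.85e-05). COL17A1, the transmembrane collagen of the hemidesmosome, had 59 reads in overexpression-labelled libraries, against 25 in control-labelled ones, 2.20-fold higher (log2 fold change on reads 1.13, SE 0.37, limma-voom adjusted p = 0.0216). That call was lost without control-labelled replicate 1 (limma-voom adjusted p = 0.0719), overexpression-labelled replicate 1 (0.0655) or overexpression-labelled replicate 2 (0.0580). COL5A3 had 25 and 40 reads (limma-voom adjusted p = 0.0727).

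The 12 genes with 1 to 29 reads stayed under 0.1 FPKM in every library. Of these, COL3A1, the collagen of reticular fibres, had 0 reads in overexpression-labelled libraries, against 28 in control-labelled ones, at least 10.0-fold lower. COL14A1, a FACIT chain, had 0 and 21 reads, at least 7.51-fold lower, and COL8A1 had 2 and 20 reads, a 10.7-fold lower level with an exact 95% counting interval of 2.61 to 94.7. The others were COL5A2 with 18 and 7 reads, COL20A1 with 17 and 5, COL6A6 with 3 and 11, COL10A1 with 6 and 3, COL1A2 with 3 and 3, COL28A1 with 4 and 1, COL23A1 with 2 and 0, COL11A1 with 0 and 2, and COL6A5 with 1 and 0. None of these 12 genes was tested, as each had under 30 reads, so the folds given for some of them rest on counting alone.

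The spread within the groups was unequal. Among collagens that averaged at least 1 FPKM in the group, the median coefficient of variation was 5.46% in the overexpression-labelled libraries (11 genes) and 15.5% in the control-labelled ones (14 genes). Control-labelled replicate 3 was the lowest of its group for 12 of the 16 tested collagens, against 39.3% of all genes tested. Control-labelled replicate 2 was the highest for 11 of the 16, and the share of all genes highest in it was not computed. Leaving out any 1 library left 5 collagens higher and 10 lower.

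Collagen chains are modified, folded, exported, trimmed and crosslinked by a shared set of proteins. For these, 97 gene symbols in 10 lists, with partners and receptors, were set beside the collagens. In the folding and export list 10 of 11 symbols had values. Of 68 listed genes that reached the filter, 61 passed the threshold. Over all tested genes 76.8% passed, 37.5% higher and 39.3% lower, at a median log2 fold change of -0.03, and the counts of each list below stand against these shares. The hydroxylation and glycosylation list, for steps in the endoplasmic reticulum, holds enzymes and proteins that work with them. Of its 14 tested genes, 10 were lower (39.3% of all tested genes), 2 were higher (37.5%) and 2 did not pass. The median log2 fold change of the 14 was -0.64. P4HA3, a catalytic subunit of prolyl hydroxylase, had 0.297, 0.359 and 0.363 FPKM in the overexpression-labelled libraries, against 17.8, 15.9 and 11.9 FPKM in the control-labelled ones, 44.7-fold lower (fitted log2 fold change -3.58, SE 0.14, limma adjusted p = 1.12e-06). P4HA1, the more widely expressed subunit, averaged 7.53 ± 0.35 FPKM in the overexpression-labelled group and 25.6 ± 1.7 in the control-labelled group (SD, n = 3 each), P3H2 0.879 ± 0.10 and 15.8 ± 1.4 FPKM, and PLOD2, a lysyl hydroxylase of the chain ends, 0.0951 ± 0.026 and 4.59 ± 0.64 FPKM. These 3 were lower at log2 fold changes of -1.64, -3.16 and -2.35. The 2 higher members were P4HA2 and PLOD3.

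Of the folding and export genes, 8 of 9 tested were lower (39.3% of all tested genes) and none was higher (37.5%), with a median log2 fold change of -0.75. SEC24D, a coat protein of the vesicles that leave the endoplasmic reticulum, averaged 1.59 ± 0.11 FPKM in the overexpression-labelled group and 9.09 ± 1.2 in the control-labelled group, and MIA3, which loads procollagen into them, 3.92 ± 0.14 and 13.3 ± 1.3 FPKM. FKBP14, a prolyl isomerase, averaged 3.68 ± 0.30 and 11.5 ± 0.89 FPKM in the same order of groups. SERPINH1, the collagen-specific chaperone, had 28.3, 28.4 and 28.96 FPKM in the overexpression-labelled libraries, against 68.8, 48.0 and 173 FPKM in the control-labelled ones. The last value stood far above the other control-labelled libraries, which were still above all overexpression-labelled ones, and the level was 3.38-fold lower with it and 2.05-fold lower without it (log2 fold change with it -1.51, SE 0.43, limma adjusted p = 0.0157).

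The list for cleavage of the ends of procollagen holds proteinases and their enhancers. Of its 5 tested genes, 4 were lower (39.3% of all tested genes) and 1 was higher (37.5%). The higher one, ADAMTS14, an N-proteinase, had 18.8, 18.6 and 19.7 FPKM in the overexpression-labelled libraries, against 0.0233, 0.0675 and 0.0227 FPKM in the control-labelled ones, 503-fold higher, or 827-fold without control-labelled replicate 2 (log2 fold change 4.27, SE 0.060, limma adjusted p = 2.03e-08). The C-proteinase TLL1 had 0 reads in the overexpression-labelled libraries, against 2023 in the control-labelled ones, at least 724-fold lower. BMP1, the main C-proteinase, averaged 4.11 ± 0.11 and 11.6 ± 1.0 FPKM, and its enhancer PCOLCE 2.47 ± 0.23 and 15.6 ± 2.7 FPKM, each lower in the overexpression-labelled group.

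Crosslinking genes were divided, with 4 of 7 higher and 3 lower. PXDN, the peroxidase that joins collagen IV molecules through sulfilimine bonds, had 0.0353, 0.0246 and 0.00497 FPKM in the overexpression-labelled libraries, against 46.9, 54.0 and 30.6 FPKM in the control-labelled ones (13 against 24618 reads; log2 fold change -5.42, SE 0.20, limma adjusted p = 8.10e-07). Its direction was that of the collagen IV genes. TGM2, a transglutaminase, had 437, 424 and 448 FPKM in the overexpression-labelled libraries, against 12.5, 12.8 and 12.3 FPKM in the control-labelled ones, 34.8-fold higher (log2 fold change 5.02, SE 0.045, limma adjusted p = 7.89e-09). The lysyl oxidases differed in direction: LOX averaged 0.124 ± 0.025 FPKM in the overexpression-labelled group and 3.79 ± 0.79 in the control-labelled group, and LOXL4 19.3 ± 0.78 and 0.175 ± 0.064 FPKM, with log2 fold changes of -2.08 and 4.11. In the degradation list 2 of 8 genes reached the filter. MMP14, a membrane-bound collagenase, had 26.4, 27.4 and 26.5 FPKM in the overexpression-labelled libraries, against 0, 0.0796 and 0.0402 FPKM in the control-labelled ones. It was 670-fold higher, or 1333-fold without control-labelled replicate 2 (log2 fold change 4.74, SE 0.059, limma adjusted p = 1.48e-08), and MRC2 did not pass.

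The partners that bind basement membrane and fibrillar collagens were divided as well. Of 13 tested basement membrane partners 6 were higher, 6 were lower and 1 did not pass. The laminin chain LAMC3 averaged 0.0515 ± 0.019 FPKM in the overexpression-labelled group and 10.9 ± 2.6 in the control-labelled group. The laminin linker NID1 had 2039 reads in the overexpression-labelled libraries, against 1 in the control-labelled ones, while NID2 averaged 0.0614 ± 0.040 and 6.06 ± 0.50 FPKM in those groups. Of the 5 hemidesmosome partners of COL17A1, ITGB4 (116 ± 3.8 and 7.18 ± 0.23 FPKM in the overexpression-labelled and control-labelled groups), ITGA6 (69.7 ± 2.1 and 4.57 ± 0.67) and PLEC (108 ± 2.6 and 55.8 ± 4.0) were among 4 that were higher, and DST (1.23 ± 0.059 and 3.87 ± 0.35) was lower. Of the fibril partners 3 reached the filter: FN1, a glycoprotein laid down with collagen, was 5.24-fold higher and SPARC 10.0-fold higher, while THBS1 was 3.05-fold lower.

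Of the collagen receptors 5 of 10 were tested, with 2 higher, 2 lower and 1 not past the threshold. DDR1, a receptor tyrosine kinase for collagen, averaged 45.1 ± 0.35 FPKM in the overexpression-labelled group and 8.49 ± 0.47 in the control-labelled group, and the integrin chain ITGA2 10.1 ± 0.19 and 3.13 ± 0.44 FPKM. ITGB1, the common chain of the collagen-binding integrins, averaged 31.4 ± 1.1 and 102 ± 6.7 FPKM, and ITGA1 1.77 ± 0.073 and 3.03 ± 0.10 FPKM. Of the 8 transcriptional regulators known to act on collagen genes, 5 were tested, with 2 higher, 2 lower and 1 not past the threshold. SOX9, which acts on COL2A1 in cartilage, averaged 98.2 ± 2.4 FPKM in the overexpression-labelled group and 0.729 ± 0.12 in the control-labelled group, and RUNX2, a bone factor, 7.89 ± 0.33 and 0.350 ± 0.046 FPKM. TWIST1, a mesenchymal factor, had 0 and 666 reads in those groups, at least 238-fold lower, and RFX5, which represses collagen I genes, averaged 9.52 ± 0.20 and 22.4 ± 0.70 FPKM.

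**Figure D4:**
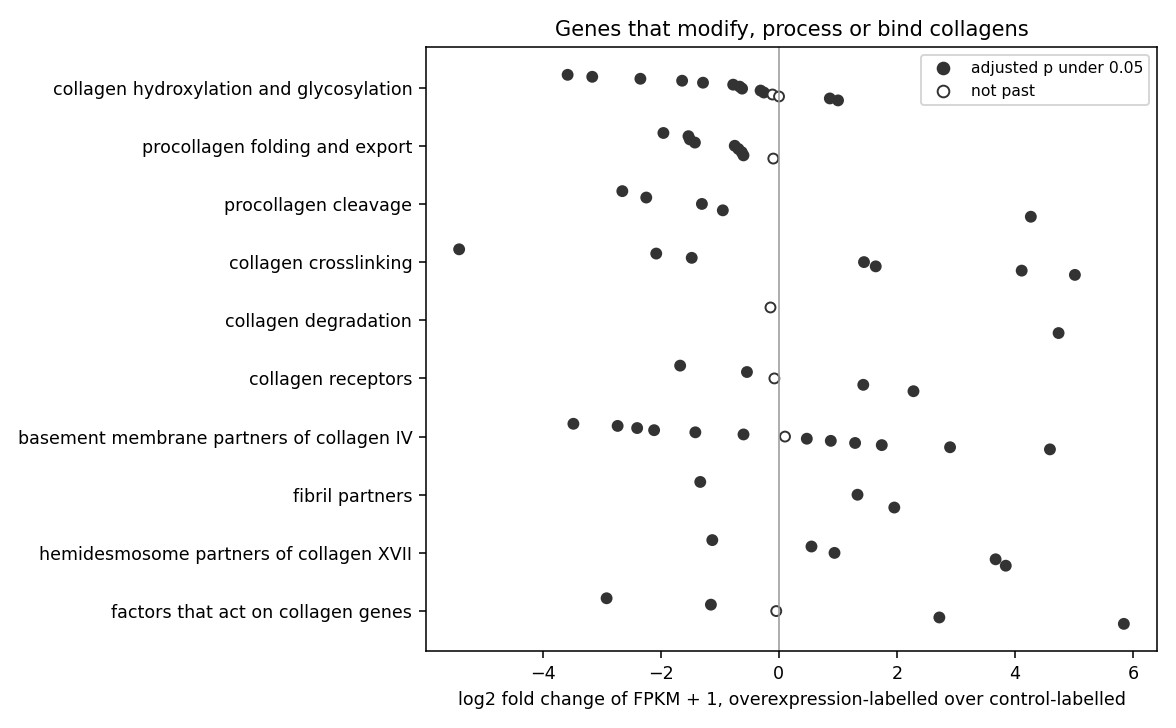
Log2 fold change on the log2(FPKM + 1) scale, overexpression-labelled over control-labelled libraries, of the 68 tested genes of 10 collagen-related lists, 1 point per gene and 1 row per list. The medians of hydroxylation, folding and cleavage genes lie below 0 (-0.64, -0.75 and -1.304), and crosslinking and basement membrane partners lie on both sides.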

How the data were processed

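The 6 libraries, 3 per group by title, were made with a SMARTer kit from RNA extracted on RNeasy columns, per the labels' protocols. The authors deposited a table of FPKM values, together with gene lengths in bases; its name and values gave the unit. The submitters' processing notes name mm10, yet all 58735 gene IDs matched human GENCODE release 29 (GRCh38) in ID, start, end and symbol. For the 44 collagen genes the union of exons equalled the deposited length. Coordinates are those of the table. Of the aligner, the counter and the strand setting nothing was stated (not given in the sources used here).

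Reads were recovered as FPKM times gene length over the smallest nonzero product of each library, which gave whole numbers within 0.001 for 100% of values. The deposited FPKM carries a further factor per library: its denominator was 1.04 to 1.05 times the read sum in overexpression-labelled libraries, against 0.958 to 0.995 times in control-labelled ones.

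As FPKM is no count, genes averaging 1 FPKM or more over the libraries were tested on log2(FPKM + 1) with limma 3.58.1 (R 4.3.3), using a mean-variance trend and a two-sided test of group alone. Benjamini-Hochberg adjustment ran over all genes tested, at a threshold of 0.05. This scale understates changes of low genes. Folds are ratios of mean FPKM unless said to be by reads. A group at 0 reads was set to 3 reads in all, which gives a lower bound; with 1 to 3 reads an exact 95% interval is given. Both cover counting error only, since amplified reads are not independent molecules. Overlapping genes and near copies may share reads.

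The members, the 10 related lists and the tests were chosen with earlier results of these data known, so no list was tested as a set. Any collagen gene could be named, with values in every library for those tested or with at least 100 reads. From each list, up to 4 genes past the threshold were named by size of change (1 such gene is not reported here); P4HA2, PLOD3, MRC2, SLC19A1, TCFL5 and the antisense genes fall outside this rule and were picked with their values known. Alternatives concerned the pseudocount (0.1), the filter, the scaling, the trend, voom on the reads, the replicate block and each library left out; voom over genes with at least 30 reads was added after the data were seen. The steps were also run on simulated data with few changed genes and small folds. That setting differs from these data, in which most genes tested were called. Promoter windows came from RefSeq on GRCh38.p14. Python 3.11.15, pandas 2.3.3 and scipy 1.17.1 were used.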

Additional observations from a re-analysis of the deposited data

How the results depend on the processing

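The collagen counts depended on which genes were tested. Without a filter, 10 of 41 collagens tested were higher and 16 lower, with 15105 of 33913 genes called over all. As reported, 5 of 16 were higher and 10 lower, with 10726 of 13972 called. With a mean of at least 5 FPKM, 3 of 10 were higher and 6 lower, with 6218 of 7796 called. After rescaling to TPM, 8 of 22 were higher and 13 lower, with 13276 of 18899 called. Voom over genes with at least 30 reads was chosen after the data were seen. It gave 11 of 29 higher and 15 lower, with 14385 of 19250 called. Without each library in turn, the counts ranged from 5 to 5 higher, from 10 to 10 lower and from 9794 to 11144 over all genes. COL6A1 was not past the threshold as reported and passed with FPKM scaled to the read total (0.21) and after quantile normalisation (0.20). No other collagen called on FPKM lost its call or turned its direction under the alternatives in which it was tested. The median log2 fold change of all genes lay between -0.10 and 0.07 across settings.

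Libraries with the same replicate number did not deviate together from their group means (correlations of -0.0059, -0.0217 and 0.0075). These values cannot show whether equal numbers mark libraries handled together, which is not stated. With the replicate number as a block 10506 genes were called over all, with 5 collagens higher and 10 lower. Depth limits the 15 collagen genes with under 30 reads.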
